A study of Mus musculus with 16 samples.

Results

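The genes described here encode transcription factors that set up the myeloid lineages: Spi1 (the factor PU.1), Cebpa, Cebpb, Cebpd and Cebpe (C/EBP factors), Gfi1, Irf8, Irf4, Id2 and Zeb2. They were chosen by symbol from a list of 10, and 9 of them were found among the 27998 features of the count tables. Cebpd was not analysed here. The counts came from lineage-depleted bone marrow, sequenced as single cells, of 16 C57BL/6 mice aged 6 to 12 weeks by their labels (the study's methods start the range later), which were injected daily for 5 weeks with 500 ng of IL1β or with vehicle. The 4 groups of 4 mice were Tet2fl/fl mice without Cre (WT) with vehicle, WT with IL1β, Vav-Cre-Tet2-/- mice as labelled (Tet2-KO, Vav-Cre Tet2fl/fl in the study's methods) with vehicle, and Tet2-KO mice given IL1β. Vav-Cre acts in all hematopoietic cells, so an effect of the transgene cannot be told apart from loss of Tet2, and the 3′ counts of Tet2 do not check the knockout. Hashtagged cells of 2 mice of the same group were pooled, in 2 pools per group, so that pools cannot be told apart from the mice in them.

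PU.1 is an ETS factor needed at low levels by stem cells and at high levels by monocytes, and IL1β is known to induce its gene. C/EBPα opens the granulocyte and monocyte program, C/EBPε drives the late granule program of neutrophils, and C/EBPβ serves emergency granulopoiesis and monocytes. GFI1 is a repressor that favours the granulocyte fate, IRF8 favours monocytes and dendritic cells, and both oppose each other in progenitors. IRF4 acts in dendritic and B lineage cells. ID2 blocks E proteins such as TCF4, and ZEB2 is a zinc finger and homeobox repressor that is needed for exit from the stem cell state and for monocytes and plasmacytoid dendritic cells.

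The 250 bases before the annotated start are shown for Irf8, Gfi1 and Zeb2 (RefSeq, GRCm38.p6), on which most of the changes with IL1β turn. RefSeq windows were found for 7 of the 9 members (not for Spi1 and Cebpe), in 12 windows because several starts are annotated for some. Capitals mark matches to 7 short motifs searched on both strands: PU.1 (GAGGAA), C/EBP (TTGCNNAA), STAT (TTCNNNGAA), NF-kB (GGGNNTTCC), IRF (AANNGAAA), E2 box (CAGGTG) and GFI1 (AAATCA). The windows lie at chr8:120736108-120736357 on the plus strand for Irf8, at chr5:107725806-107726055 on the minus strand for Gfi1 and at chr2:45117443-45117692 on the minus strand for Zeb2.
Irf8: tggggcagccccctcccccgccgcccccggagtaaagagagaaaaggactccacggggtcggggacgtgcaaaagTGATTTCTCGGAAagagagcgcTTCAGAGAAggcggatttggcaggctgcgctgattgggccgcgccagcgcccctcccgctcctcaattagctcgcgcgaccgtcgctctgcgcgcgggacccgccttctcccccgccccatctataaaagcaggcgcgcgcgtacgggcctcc
Gfi1: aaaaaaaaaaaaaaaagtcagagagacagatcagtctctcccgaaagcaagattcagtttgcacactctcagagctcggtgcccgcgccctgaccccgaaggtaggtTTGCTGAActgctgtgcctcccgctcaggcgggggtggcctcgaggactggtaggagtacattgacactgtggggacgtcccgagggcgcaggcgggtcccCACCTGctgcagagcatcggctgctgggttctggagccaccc
Zeb2: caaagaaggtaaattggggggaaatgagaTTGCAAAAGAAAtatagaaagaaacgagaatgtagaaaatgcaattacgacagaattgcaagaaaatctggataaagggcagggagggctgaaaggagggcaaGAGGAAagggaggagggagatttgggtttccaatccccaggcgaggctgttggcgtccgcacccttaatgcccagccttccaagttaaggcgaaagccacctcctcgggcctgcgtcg
The Irf8 window holds 2 STAT matches, 171 and 153 bases before the start, and the first overlaps a GFI1 match at 175 bases. In the Gfi1 window a C/EBP match lies 143 and an E2 box 42 bases before the RefSeq start. By the gene annotation given below, most of this window, with both matches, lies inside the gene. The Zeb2 window holds a C/EBP match at 221 bases that overlaps an IRF match at 217 bases, and a PU.1 match at 118 bases. Other annotated starts have windows that are not printed: 2 overlapping windows of Zeb2 share a STAT and an NF-kB match beside IRF and PU.1 matches, the second Irf8 window holds an E2 box and a GFI1 match, and the second Gfi1 window holds an IRF match. Among 32851 windows of the same length, 23.3% hold the PU.1 letters, 9.56% C/EBP, 7.02% STAT, 4.98% NF-kB, 21.3% IRF, 17.2% the E2 box and 12.4% GFI1, so a match is a description of the sequence and not a binding site. By the gene annotation of GRCm38, the genes themselves lie at chr8:120736358-120756694 (Irf8), chr5:107716657-107726036 (Gfi1), chr2:44983632-45117395 (Zeb2), chr2:91082390-91115756 (Spi1), chr12:25093799-25097140 (Id2), chr7:35119293-35121928 (Cebpa), chr2:167688915-167690418 (Cebpb), chr14:54710360-54712174 (Cebpe) and chr13:30749226-30766976 (Irf4).

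Of 94917 barcodes kept by the study's limits on genes and mitochondrial UMIs, 57896 were given to 1 mouse by hashtag, and the UMIs (unique molecular identifiers, counted once per captured molecule) of these cells summed to 4388604 to 44152768 per mouse. Between 187 and 327 kept barcodes per library also occurred in another library. Cells were placed in 17 classes by marker genes that include no member, and 21937 cells fell in the 4 gates tested: HSC-like cells (Hlf, Mecom or Procr with other stem cell markers), Mpo+ Cd34+ progenitors with little or no Ms4a3, granulocyte progenitors (Elane+ Ms4a3+) and monocytes (Ly86, Ccr2, F13a1 and others). HSC-like cells were led by Hlf, Gcnt2 and Meis1, granulocyte progenitors by Elane, Ms4a3 and Prtn3, and monocytes by Fn1, S100a4 and Lyz2. The progenitors were led by Cd34, Sox4 and Adgrg1 and hold 1 of their own markers among the leading 10 genes, so they are named by their gate. Per mouse, the gates held 13 to 242 HSC-like cells, 19 to 215 progenitors, 180 to 2093 granulocyte progenitors and 25 to 456 monocytes. In 2 mice, WT vehicle 2 (10.6% of cells with Xist) and WT IL1β 3 (21.5%), Y-linked UMIs were also found, in 48.1% and 55.7% of cells. Cells that held both were not counted, so whether cells of both sexes share 1 hashtag was not tested. These are the mice of mixed sex named below. Without these 2 mice, 6 member tests were called with IL1β in WT and 10 in Tet2-KO mice, in place of 7 and 11. Their female pool mates, WT vehicle 1 and WT IL1β 4, had Y-linked UMIs in 3.73% and 4.79% of cells and were kept. Other females had at most 0.22%. Each other pool held mice of the same sex, so mixing could not be seen there. In the HSC-like gate of 1 WT mouse with IL1β the summed level of Jchain and Mzb1, markers of antibody-forming cells, was 2674 CPM (UMIs per 1000000 of the gate).

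The members marked out different classes of WT marrow with vehicle (levels in CPM, the UMIs of the gene per 1000000 UMIs of the class, with mean ± SD over mice, as a description with no test). Spi1 was present in all myeloid classes and stood at 296 ± 18 (n = 4) in monocytes, 258 ± 32 (n = 3) in dendritic cells, 235 ± 30 (n = 4) in immature neutrophils, 161 ± 9.5 (n = 4) in granulocyte progenitors, 129 ± 12 (n = 4) in Mpo+ Cd34+ progenitors and 61.3 ± 41 (n = 4) in HSC-like cells. Erythroid cells, which gauge RNA from other cells, had 21.3 ± 8.3. They held a median of 11453 UMIs per cell, against 2923 in HSC-like cells and 3478 in monocytes. The same amount of such RNA per cell gives a lower CPM in deeper cells. That amount was not measured, and transcripts of the erythroid cells themselves were not told apart. The gauge can therefore understate or overstate such RNA in the other gates. The mice of monocytes, dendritic cells and immature neutrophils overlapped in Spi1, while immature neutrophils lay above Mpo+ monocyte marker+ cells (181 ± 10) without overlap, and granulocyte progenitors above basophils (138 ± 6.5).

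The C/EBP genes each had another peak. Cebpa was highest in basophils, at 277 ± 48 (n = 4, lowest mouse 232), above every mouse of the next class, the Mpo+ Cd34+ progenitors at 83.4 ± 19, which overlapped granulocyte progenitors at 73.4 ± 8.1. Cebpb, which also marks mature myeloid cells, reached 437 ± 130 (n = 4) in monocytes and 219 ± 57 in basophils. Cebpe stood at 166 ± 35 in granulocyte progenitors, 423 ± 46 in immature neutrophils and 700 ± 170 in eosinophils (n = 3), all cells that form granules, and the mice of these classes did not overlap.

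Gfi1 and Irf8 lay in opposite classes. Gfi1 stood at 72.8 ± 6.1 (n = 4) in granulocyte progenitors, 32.9 ± 14 in immature neutrophils and 0.658 in monocytes. Irf8 was highest in plasmacytoid dendritic cells (2405 ± 754, n = 3), followed by dendritic cells (1247 ± 293, n = 3), monocytes (794 ± 322, n = 4) and Mpo+ monocyte marker+ cells (643 ± 120, n = 4), and was lower in Mpo+ Cd34+ progenitors (264 ± 56), granulocyte progenitors (117 ± 42) and HSC-like cells (57.5). Erythroid cells had 39.0 ± 18, so Irf8 in HSC-like cells was close to this background.

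Id2 was highest in dendritic cells (712 ± 180, n = 3) and in T and NK cells (348 ± 170, n = 3), with 127 ± 19 in immature neutrophils and 92.7 ± 51 in monocytes (n = 4 each). Zeb2 was present in nearly every class, from 650 ± 29 in megakaryocytes, 571 ± 78 in monocytes and 482 ± 98 in plasmacytoid dendritic cells to 305 ± 40 in Mpo+ Cd34+ progenitors, 186 ± 40 in HSC-like cells and 162 ± 22 in erythroid cells. Irf4 was a gene of the B lineage here, at 189 ± 64 in Jchain+ Mzb1+ cells (n = 4) against 27.8 ± 18 in dendritic cells. It had 4 UMIs in HSC-like cells, 4 in progenitors, 27 in granulocyte progenitors and 80 in monocytes over all mice, which left it under the filter on low counts in all 4 tested gates.

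**Figure D1:**
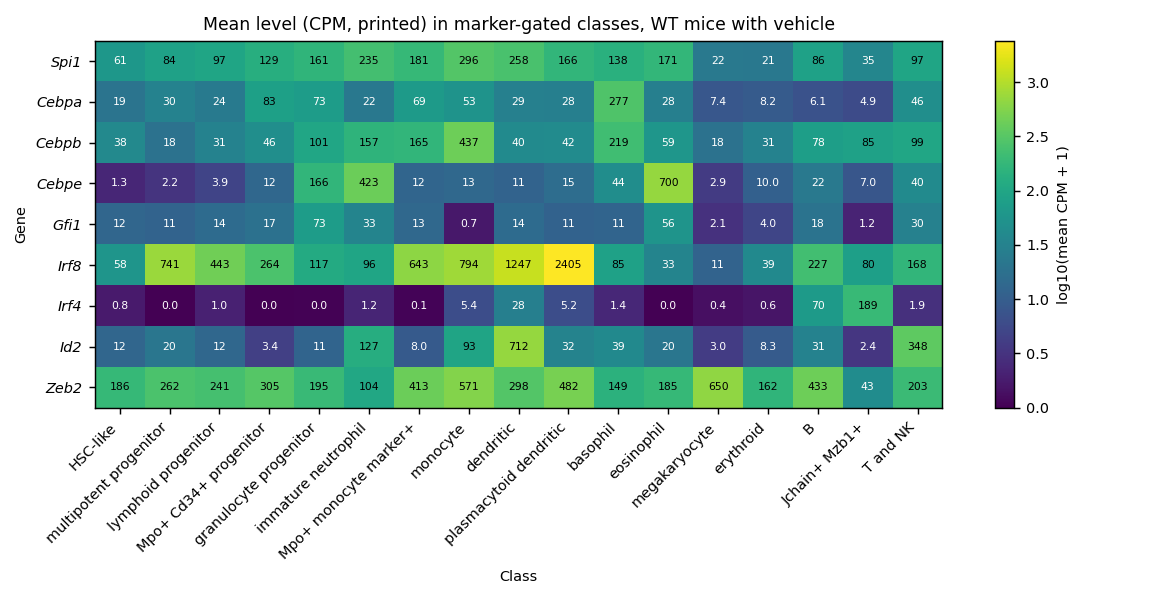
Heat map of the 9 members (rows) over 17 marker-gated classes (columns) of WT mice with vehicle, coloured by log10 of the mean CPM + 1 and printed with the mean CPM. Irf8 is highest in plasmacytoid dendritic cells at 2405, Cebpe in eosinophils at 700, Cebpa in basophils at 277 and Gfi1 in granulocyte progenitors at 72.8.

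Over the whole transcriptome, the genes whose profile over the 17 classes was most like that of a member (Pearson's r of log2(CPM + 1) among 5419 genes, across classes that share libraries and mice) were Diaph2 (0.95), Fes (0.94) and Myo1f (0.94) for Spi1, and Ccl9 (0.86), Fam107b (0.82) and Gng12 (0.81) for Cebpa. They were Flot2 (0.84), Fis1 (0.83) and Dok3 (0.81) for Cebpb, Ncam1 (0.91), Cldn15 (0.88) and Wfdc21 (0.85) for Cebpe, and Slc28a2 (0.86), Lta4h (0.81) and Alas1 (0.78) for Gfi1. For Irf8 they were Pkib (0.94), Kmo (0.92) and Rasa4 (0.92), for Irf4 Ms4a1 (0.92), Slamf7 (0.92) and Pou2af1 (0.91), for Id2 Efhd2 (0.90), Mir142hg (0.84) and Btg1 (0.84), and for Zeb2 Lmnb1 (0.85), Nt5c (0.84) and Ywhah (0.83).

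Levels between gates were then tested in WT mice with vehicle, with the mouse as a block (edgeR's quasi-likelihood test, adjusted by Benjamini-Hochberg over 8130 genes, called at an adjusted p under 0.05). From HSC-like cells to Mpo+ Cd34+ progenitors, 5 of the 8 members tested rose, against 20.6% of all genes called in either direction. They were Irf8 with a log2 fold change of 2.90 ± 0.20 (SE), Cebpe with 2.62 ± 0.68, Cebpa with 2.28 ± 0.28, Zeb2 with 1.08 ± 0.12 and Spi1 with 0.78 ± 0.17 (adjusted p at most 0.00252). Cebpb, Gfi1 and Id2 had log2 fold changes of 0.11 ± 0.27, 0.28 ± 0.38 and -1.22 ± 0.63 that did not pass. Without WT vehicle mouse 3, Cebpe was at 1.88 and not called (adjusted p = 0.206). Cebpe had 0, 0, 1 and 2 UMIs in HSC-like cells of mice 1 to 4. The filter on low counts was set over the 4 gates together, so a gene low in 1 gate could pass through another.

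From the progenitors to granulocyte progenitors 7 of 8 members changed, against 33.0% of all genes. Cebpe rose by 3.73 ± 0.18 on the log2 scale, Gfi1 by 2.09 ± 0.20, Id2 by 1.57 ± 0.44, Cebpb by 1.56 ± 0.16 and Spi1 by 0.54 ± 0.11, while Irf8 fell by 0.80 ± 0.10 and Zeb2 by 0.49 ± 0.08 (adjusted p at most 0.00295). Without WT vehicle mouse 3, Id2 was not called (adjusted p = 0.0585). Id2 had 4, 0, 2 and 3 UMIs in the progenitors of mice 1 to 4, so its changes against them rest on few UMIs. Cebpa, at -0.10 ± 0.14, did not pass.

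Toward monocytes the pair Gfi1 and Irf8 parted. The granulocyte progenitor gate needs Elane and Ms4a3, and the monocyte gate leaves out cells that pass limits on Elane, Ms4a3 or Mpo. Members regulated along with these markers are not independent of the gates, and the part of the gate rules in these differences was not tested. Against progenitors, 7 of 8 members differed, with 50.6% of all genes called. Id2 rose by 4.08 ± 0.33, Cebpb by 3.33 ± 0.14, Irf8 by 1.77 ± 0.09, Spi1 by 1.29 ± 0.11 and Zeb2 by 0.93 ± 0.08 on the log2 scale, while Gfi1 fell by 4.25 ± 0.53 and Cebpa by 0.38 ± 0.16. Against granulocyte progenitors all 8 tested members differed, with 65.6% of all genes called. Monocytes were higher in Irf8 (2.57 ± 0.08), Id2 (2.51 ± 0.16), Cebpb (1.77 ± 0.08), Zeb2 (1.42 ± 0.07) and Spi1 (0.76 ± 0.08), and lower in Gfi1 (-6.34 ± 0.30), Cebpe (-3.75 ± 0.14) and Cebpa (-0.28 ± 0.12). Both Cebpa calls were small (adjusted p = 0.0348 and 0.0306) and were lost with stricter gates and without some of the 4 mice. Gfi1 had 2, 0, 0 and 2 UMIs in monocytes of mice 1 to 4, so the size of its falls rests on few UMIs there.

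IL1β for 5 weeks changed between 0 and 6 of the members tested in a gate, and Zeb2, Gfi1, Spi1 and Irf8 made up most of the calls. Zeb2 rose in HSC-like cells, Mpo+ Cd34+ progenitors and granulocyte progenitors of both genotypes. Gfi1 rose in granulocyte progenitors, where Spi1 and Irf8 fell. No member of the C/EBP group passed the test as higher in any gate, although Cebpe in WT progenitors did when genes with low counts were kept, and Spi1 passed as higher in none. Each comparison used UMIs summed per mouse and gate, so that the mouse was the replicate, in 1 edgeR fit per gate over all 16 mice. The values per mouse below are CPM with TMM factors ("normalised CPM"), given in the order of mice 1 to 4, which is not a ranking.

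In WT mice, IL1β changed 1 of 6 members tested in HSC-like cells (5.26% of all genes called), 2 of 7 in the progenitors (9.97%), 4 of 8 in granulocyte progenitors (31.0%) and 0 of 7 in monocytes (4.14%). In Tet2-KO mice it changed 2 of 6 (10.1%), 2 of 7 (20.1%), 6 of 8 (40.9%) and 1 of 7 (3.3%). The median log2 fold change over the members tested was 0.32 in WT and -0.20 in Tet2-KO HSC-like cells, 0.61 and 0.21 in the progenitors, -0.01 and 0.01 in granulocyte progenitors and 0.14 and 0.19 in monocytes, where all genes had medians between 0.01 and 0.04. In monocytes of WT mice, 3 members had an unadjusted p under 0.05 in edgeR, and DESeq2 called 0 members there.

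Zeb2, the repressor needed for exit from the stem cell state, was called in 3 of the 4 gates in both genotypes. In HSC-like cells it measured 187, 234, 175 and 177 normalised CPM in WT mice with vehicle and 348, 442, 476 and 427 with IL1β. The Tet2-KO mice had 216, 249, 203 and 208 with vehicle and 249.6, 311, 359 and 374 with IL1β. In both genotypes every mouse with IL1β lay above every mouse with vehicle, though the lowest Tet2-KO mouse with IL1β only just did. Zeb2 rose 2.29-fold in WT (log2 1.19 ± 0.17, SE; adjusted p = 3.9e-05) and 1.54-fold in Tet2-KO HSC-like cells (0.62 ± 0.15; adjusted p = 0.00716). In erythroid cells of the same mice, the plain level of Zeb2 was 162 CPM with vehicle and 195 with IL1β in WT and 198 and 219 in Tet2-KO, against 186 and 429, and 201 and 314, in HSC-like cells.

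In the progenitors, Zeb2 measured 327, 264, 337 and 365 normalised CPM in WT mice with vehicle and 427, 794, 612 and 567 with IL1β. In Tet2-KO mice it measured 439, 415, 411 and 365 with vehicle and 606, 486, 765 and 557 with IL1β. The treated and control mice did not overlap in either genotype. The rise was 1.78-fold in WT (log2 0.83 ± 0.16; adjusted p = 0.000827) and 1.48-fold in Tet2-KO mice (0.56 ± 0.15; adjusted p = 0.00892), and without Tet2-KO IL1β mouse 3 the second was 0.42 (adjusted p = 0.0633). Over the 6 markers of multipotent progenitors, the summed level in this gate ranged from 1413 to 1889 CPM with vehicle and 1923 to 2152 with IL1β in WT, and from 1668 to 2055 and 2457 to 2973 in Tet2-KO mice, with none of them at 0. In HSC-like cells the same list ranged from 1854 to 2181 and 2183 to 3238 in WT, and from 1841 to 2446 and 2957 to 3685 in Tet2-KO mice. The part of these markers' cells in the result was not tested.

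In granulocyte progenitors the change in Zeb2 was smaller. It measured 196, 199, 211 and 217 normalised CPM in WT mice with vehicle and 243, 306, 280.0 and 268 with IL1β, and 236, 236, 249.7 and 243 against 334, 293, 266 and 259.6 in Tet2-KO mice. Again no treated mouse overlapped a control of its genotype. Zeb2 rose 1.33-fold in WT (log2 0.41 ± 0.09; adjusted p = 0.00184) and 1.19-fold in Tet2-KO mice (0.26 ± 0.09; adjusted p = 0.0226). The latter log2 fold change was 0.18 without Tet2-KO IL1β mouse 1 (adjusted p = 0.110) and 0.24 without Tet2-KO vehicle mouse 2 (adjusted p = 0.0541). With the pool in place of the mouse as replicate, neither passed (adjusted p = 0.0958 and 0.174). The plain level of Zeb2 with vehicle and IL1β was 195 and 298 CPM in WT and 225 and 299.8 in Tet2-KO granulocyte progenitors. In erythroid cells it was 162 and 195 in WT, and 198 and 219 in Tet2-KO mice. Whether Zeb2 in erythroid cells is their own or RNA from other cells was not tested. The vehicle levels of granulocyte progenitors lay close to the erythroid ones. The summed level of 7 macrophage markers in this gate ranged from 22.1 to 49.6 CPM with vehicle (C1qa, C1qc and Cd5l at 0) and 71.7 to 129.8 with IL1β in WT mice, and from 11.5 to 38.4 (Cd5l at 0) and 67.1 to 105.0 in Tet2-KO mice, and its part in the result was not tested. In monocytes, Zeb2 was 579 ± 92.7 with vehicle and 726 ± 94.4 with IL1β in WT mice (log2 0.31 ± 0.14; adjusted p = 0.209) and 618 ± 119 and 640 ± 19.0 in Tet2-KO mice, and neither difference passed.

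Gfi1 had its highest level of the tested gates in granulocyte progenitors. WT mice had 71.0, 84.7, 73.5 and 78.0 normalised CPM with vehicle and 102, 107, 109 and 104 with IL1β. Tet2-KO mice had 72.4, 75.4, 64.2 and 50.5 with vehicle and 117, 85.3, 111 and 89.2 with IL1β. Every treated mouse was above every control of its genotype. The rise was 1.39-fold in WT (log2 0.47 ± 0.12; adjusted p = 0.00542) and 1.53-fold in Tet2-KO mice (0.61 ± 0.11; adjusted p = 0.000284). In the progenitors the mice did not overlap either, at 18.2 ± 6.89 against 43.4 ± 13.3 in WT and 16.1 ± 7.69 against 29.1 ± 5.65 in Tet2-KO mice, but the differences missed the threshold (log2 0.92 ± 0.31, adjusted p = 0.053; 0.66 ± 0.30, adjusted p = 0.123). When hashtag ratios assigned the cells to mice, both passed (adjusted p = 0.0285 and 0.0256). HSC-like cells had 0.0 to 38.7 normalised CPM of Gfi1 per mouse with overlapping groups, and monocytes at most 7.46, under the filter.

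Id2, whose product blocks E proteins, rose in granulocyte progenitors of Tet2-KO mice. It measured 11.4, 14.3, 9.22 and 5.13 normalised CPM with vehicle and 15.0, 12.98, 30.2 and 25.7 with IL1β. The groups overlapped in 1 mouse with IL1β. The fold change was 2.10 (log2 1.07 ± 0.24; adjusted p = 0.00158), and with pools as replicates it did not pass (adjusted p = 0.0629). In WT mice, 9.19, 13.9, 12.5 and 12.2 stood against 17.3, 20.2, 19.1 and 15.9, which do not overlap, yet the difference missed the threshold (0.64 ± 0.28; adjusted p = 0.0838). It passed with libraries scaled by size alone (adjusted p = 0.0208), with no filter on low counts (0.0386), with the sex of the mouse in the fit (0.0309) and without Tet2-KO IL1β mouse 2 (0.0474), so a rise in Tet2-KO mice alone is not shown. Monocytes had overlapping values, with log2 fold changes of 0.68 ± 0.28 in WT and 0.68 ± 0.27 in Tet2-KO mice (adjusted p = 0.181 and 0.164) that passed with no filter on low counts (adjusted p = 0.00399 and 0.00383), and in the other 2 gates Id2 was under the filter.

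Spi1 fell with IL1β in granulocyte progenitors and passed as higher in no gate. In granulocyte progenitors it measured 161, 182, 168 and 167 normalised CPM in WT mice with vehicle and 129, 127, 122 and 113 with IL1β, and 184, 174, 202 and 179.9 against 139, 129.5, 154 and 153 in Tet2-KO mice. In both genotypes every treated mouse was below every control. The level with IL1β was 0.73 times that with vehicle in WT (log2 -0.45 ± 0.08; adjusted p = 0.000396) and 0.78 times in Tet2-KO mice (-0.36 ± 0.08; adjusted p = 0.000949). With pools as replicates the Tet2-KO difference missed the threshold (adjusted p = 0.0542). The part of monocytes, the tested gate highest in Spi1, in these falls was not tested.

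In monocytes, Spi1 measured 319, 354, 385 and 373 normalised CPM in Tet2-KO mice with vehicle and 288, 278, 263 and 221 with IL1β, without overlap. It fell by 0.46 ± 0.13 on the log2 scale (adjusted p = 0.0462), a call that lies at the threshold and that most alternatives lost (adjusted p = 0.0559 with the sex of the mouse in the fit, 0.0767 with stricter gates, 0.057 without the 2 mice of mixed sex). In WT monocytes 341, 275, 294 and 290.2 stood against 267, 285, 218 and 216, which overlap (-0.29 ± 0.13; adjusted p = 0.223). With cells given to mice by hashtag ratio, Spi1 had a log2 fold change of -0.41 in WT monocytes and passed (adjusted p = 0.032), so a fall of Spi1 in Tet2-KO monocytes alone is not shown. In the progenitors the log2 fold changes of Spi1 were -0.37 ± 0.20 in WT and -0.33 ± 0.18 in Tet2-KO mice (adjusted p = 0.241 and 0.187). In HSC-like cells, where IL1β is known to induce this gene, WT mice had 93.4, 0.0, 92.2 and 79.9 with vehicle and 90.0, 114, 80.3 and 82.7 with IL1β, and Tet2-KO mice 124, 89.1, 112 and 85.5 against 125, 83.3, 92.3 and 84.6. The groups overlapped, and the log2 fold changes were 0.08 ± 0.25 and -0.24 ± 0.20 (adjusted p = 0.933 and 0.499). The mouse at 0.0 had 13 HSC-like cells.

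**Figure D2:**
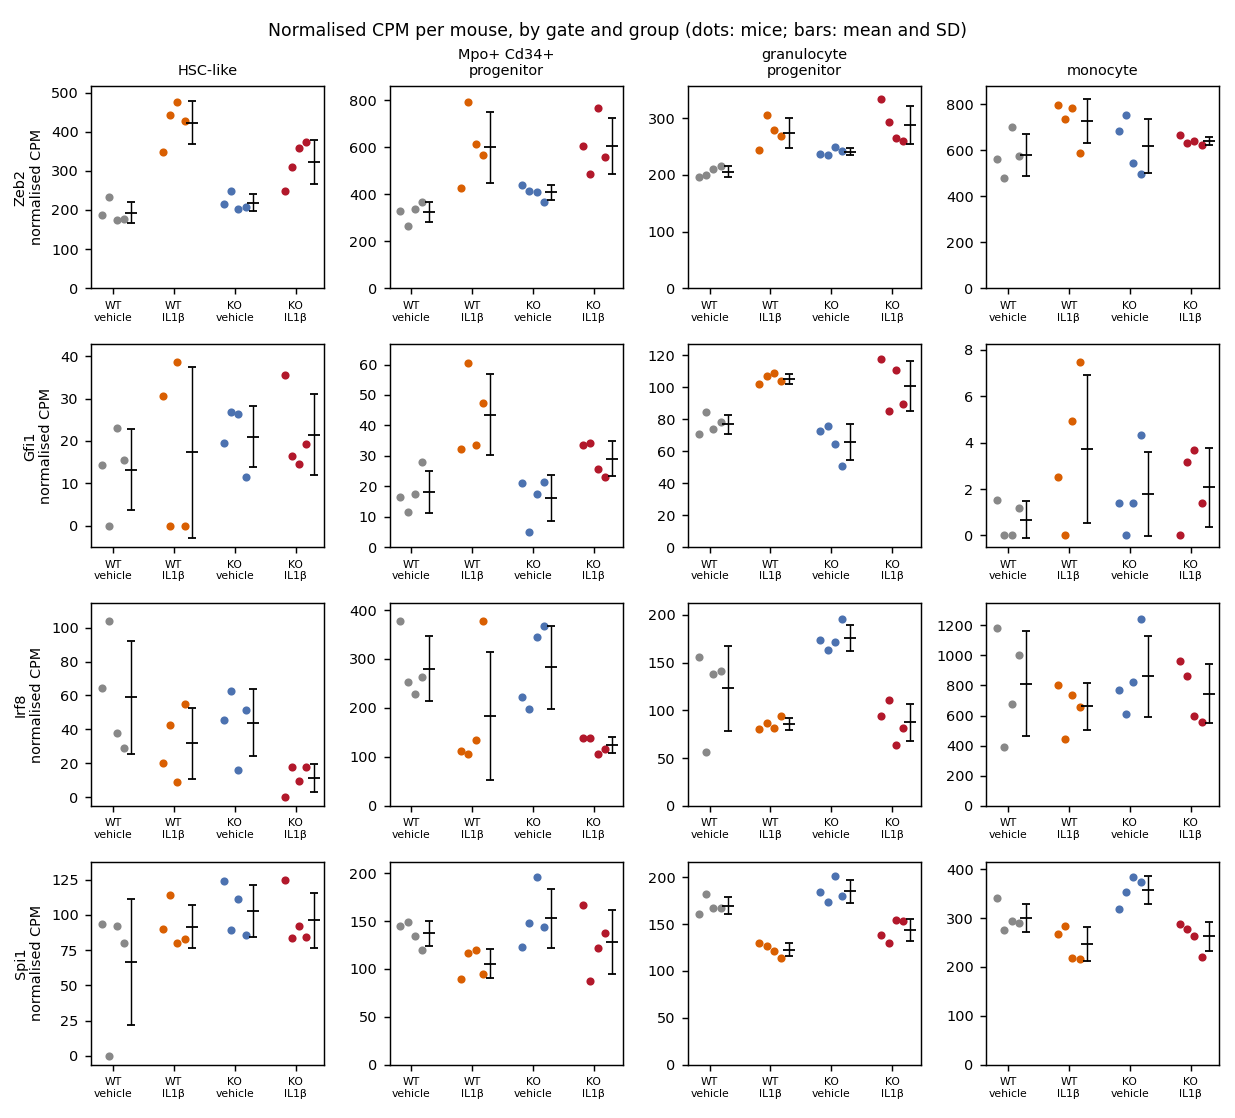
Normalised CPM (vertical axes) of Zeb2, Gfi1, Irf8 and Spi1 in the 4 tested gates by group, with a dot for each mouse and bars for mean and SD (n = 4). In granulocyte progenitors Zeb2 and Gfi1 are higher and Spi1 lower in every mouse with IL1β than in the vehicle mice of its genotype, for instance 113 to 129 against 161 to 182 normalised CPM of Spi1 in WT.

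Irf8, the monocyte and dendritic cell factor, fell in progenitors. In Mpo+ Cd34+ progenitors of Tet2-KO mice it measured 222, 197, 345 and 367 normalised CPM with vehicle and 138, 138, 105 and 117 with IL1β, without overlap, and the level with IL1β was 0.43 times that with vehicle (log2 -1.22 ± 0.25; adjusted p = 0.000902). WT mice had 378, 252, 228 and 264 with vehicle and 113, 106, 134 and 378 with IL1β. Here 1 treated mouse was as high as the highest control, and the call (-0.82 ± 0.26; adjusted p = 0.0423) was lost without any of WT IL1β mice 1 to 3 or WT vehicle mice 1 and 4, with log2 fold changes from -1.26 to -0.60 over the mice left out. It was also lost without the 2 mice of mixed sex (adjusted p = 0.183) and with DESeq2 (adjusted p = 0.252).

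In granulocyte progenitors Tet2-KO mice had 173, 163, 172 and 195 normalised CPM of Irf8 with vehicle and 93.7, 111, 63.5 and 81.6 with IL1β. The groups were well apart and the level with IL1β was 0.50 times that with vehicle (log2 -1.01 ± 0.18; adjusted p = 0.000178). In WT mice 156, 56.8, 138 and 141 stood against 80.8, 87.0, 81.8 and 93.6. A single control, WT vehicle mouse 2, one of the mice of mixed sex, lay under the treated mice, and the fold was 0.66 (-0.59 ± 0.18; adjusted p = 0.0188). Without WT IL1β mouse 3 or WT vehicle mouse 1, 3 or 4 this call was lost, as it was with libraries scaled by size alone (-0.40; adjusted p = 0.0927), while without both mice of mixed sex it was -0.74 (adjusted p = 0.00287). Also without these 2 mice, the WT log2 fold changes in this gate were 0.39 for Zeb2, 0.48 for Gfi1 and -0.42 for Spi1 (adjusted p = 0.0157, 0.0204 and 0.00485).

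In HSC-like cells of Tet2-KO mice Irf8 was also called lower with IL1β, at 45.8, 62.4, 16.2 and 51.3 normalised CPM against 0.0, 17.6, 9.72 and 17.6, which overlap (log2 -1.38 ± 0.42; adjusted p = 0.0301). This rests on 54 and 29 UMIs, and leaving out any of 5 mice lost it (adjusted p up to 0.122). The plain level was 40.5 and 10.9 CPM in HSC-like cells and 46.2 and 13.1 in erythroid cells of the same groups, so that Irf8 in HSC-like cells lay at the level of the erythroid background, which moved alike. WT HSC-like cells had 64.6, 104, 37.9 and 29.2 against 20.4, 42.7, 8.92 and 55.1 (-0.94 ± 0.47; adjusted p = 0.261). In the progenitors and granulocyte progenitors, Irf8 stood above that background, with erythroid levels of 39.0 and 35.9 CPM in WT. In Tet2-KO mice, where the clearer Irf8 calls were made, the erythroid level itself fell from 46.2 to 13.1 CPM with IL1β. The part of RNA from other cells in the Tet2-KO falls was not tested.

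The summed markers of plasmacytoid dendritic cells, the class highest in Irf8, were also lower with IL1β in the progenitors and granulocyte progenitors. Of 5 markers, 4 were detected in WT mice (Klk1 at 0), and their summed level in the Mpo+ Cd34+ progenitors ranged from 155.7 to 208.2 CPM with vehicle and 76.7 to 112.8 with IL1β, and in granulocyte progenitors from 117.1 to 148.1 and 79.0 to 97.4. In Tet2-KO mice the ranges were 150.9 to 213.2 (Ccr9 and Klk1 at 0) and 92.9 to 137.7 (Siglech and Klk1 at 0) in progenitors, 132.3 to 156.6 and 79.6 to 95.4 (Klk1 at 0) in granulocyte progenitors, and 113.3 to 163.1 and 75.3 to 102.3 in HSC-like cells, where Siglech, Ccr9, Cox6a2 and Klk1 were at 0 with IL1β and the sum was that of Bst2 alone. Tcf4, also among the 10 leading genes of these cells, rose with IL1β in both progenitor gates. The part of Bst2 in the sums of the other gates is not given here. The part of plasmacytoid dendritic cells in the result was not tested. Nor was that of monocytes, the tested gate highest in Irf8 and Spi1. In monocytes Irf8 varied widely among mice, at 390.5 to 1181 normalised CPM with vehicle and 446 to 800.4 with IL1β in WT and 609.5 to 1239.7 and 560.0 to 959 in Tet2-KO mice, and did not pass in either genotype.

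Among the C/EBP genes 1 test of IL1β passed, that of Cebpb in Tet2-KO granulocyte progenitors. Cebpa measured 77.5 ± 9.5 normalised CPM with vehicle and 80.0 ± 8.9 with IL1β in WT granulocyte progenitors and 83.0 ± 13.7 and 83.0 ± 3.5 in Tet2-KO ones, with log2 fold changes of 0.07 ± 0.11 and 0.00 ± 0.10. In WT Mpo+ Cd34+ progenitors it measured 113, 68.8, 70.8 and 103 against 99.1, 152, 101 and 135, which overlap (0.29 ± 0.19; adjusted p = 0.362). Cebpb fell in Tet2-KO granulocyte progenitors by 0.29 ± 0.11 on the log2 scale (adjusted p = 0.0349), from 128, 104, 154 and 133 to 103, 97.9, 118 and 105, with overlap. In WT mice its difference was -0.08 ± 0.11 (adjusted p = 0.635), and the Tet2-KO call was lost when libraries were scaled by size alone (-0.14), with pools as replicates (adjusted p = 0.111), and without Tet2-KO IL1β mouse 1, 2 or 4 or Tet2-KO vehicle mouse 1, 3 or 4. Without Tet2-KO vehicle mouse 3 the log2 fold change was -0.19 (adjusted p = 0.174).

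Cebpe, of the granule program, measured 179, 227, 156 and 139 normalised CPM in WT granulocyte progenitors with vehicle and 131, 142, 135 and 107 with IL1β, which overlap, and missed the threshold (log2 -0.40 ± 0.16; adjusted p = 0.0674). It passed with DESeq2 (adjusted p = 0.0458), with no filter on low counts (0.0357) and without Tet2-KO IL1β mouse 2 (0.0419), Tet2-KO vehicle mouse 3 (0.0423) or WT vehicle mouse 4 (0.0404). In Tet2-KO mice the difference was 0.01 ± 0.16 (adjusted p = 0.971). In WT Mpo+ Cd34+ progenitors Cebpe measured 9.08, 11.5, 20.2 and 11.7 with vehicle and 20.7, 15.2, 74.4 and 0.0 with IL1β. The mice overlapped widely and the difference of 1.21 ± 0.49 did not pass (adjusted p = 0.118), while with no filter on low counts it was 1.18 and passed (adjusted p = 0.0336). With libraries scaled by size alone, the median log2 fold change of all genes with IL1β was higher than with TMM factors by 0.19 in WT and 0.15 in Tet2-KO granulocyte progenitors, 0.12 and 0.13 in the progenitors, 0.10 and 0.09 in HSC-like cells and 0.06 and 0.07 in monocytes, and changes are given here with TMM factors, relative to that shift.

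**Figure D3:**
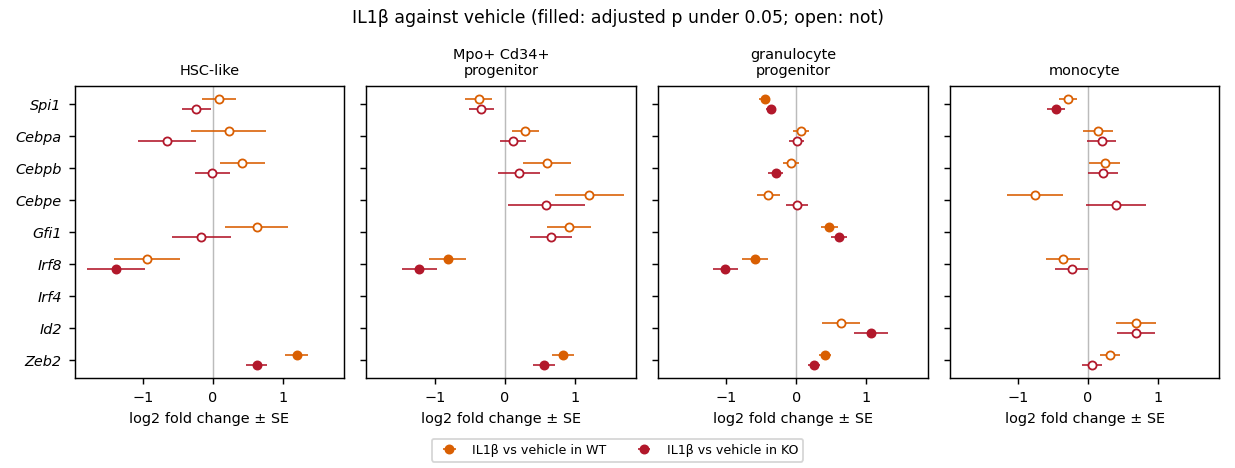
Log2 fold change of each tested member with IL1β against vehicle (horizontal axes, error bars SE) in 4 gates, for WT and Tet2-KO mice. Filled points passed an adjusted p under 0.05. In granulocyte progenitors 2 members are called higher and 2 lower in WT, against 3 in each direction in the Tet2-KO group.

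Classes outside the tested gates are given as levels with no test. In Mpo+ monocyte marker+ cells, Zeb2 was 413 ± 11 CPM with vehicle and 635 ± 47 with IL1β in WT and 420 ± 23 and 629 ± 72 in Tet2-KO mice, and Spi1 was 181 ± 10 and 159 ± 9, and 217 ± 12 and 177 ± 14. Their Irf8 was 643 ± 120 and 622 ± 46, and 626 ± 50 and 555 ± 43. In dendritic cells Irf8 was 1247 ± 293 and 655 ± 69 in WT and 971 ± 175 and 546 ± 106 in Tet2-KO mice.

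Basophils had 11.3 ± 2.7 CPM of Gfi1 with vehicle and 29.4 ± 6.5 with IL1β in WT, and 12.1 ± 4.6 and 31.9 ± 10 in Tet2-KO mice. Their Spi1 was 138 ± 6.5 and 99.9 ± 6.1, and 139 ± 14 and 115 ± 5.7. In immature neutrophils Gfi1 was 32.9 ± 14 and 65.5 ± 15 in WT and 27.4 ± 18 and 51.2 ± 3.7 in Tet2-KO mice, where Id2 was 104 ± 47 and 188 ± 23.

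The share of cells with a UMI was compared for Spi1, Irf8, Cebpa and Cebpb after each cell was thinned to 1500 UMIs. Of 64 comparisons, none passed the exact permutation test with Benjamini-Hochberg adjustment (smallest adjusted p = 0.305). Without thinning none passed either. With 4 mice against 4 the smallest possible exact p is 0.0286, and 6 comparisons reached it. After adjustment a call would have needed most of the 64 comparisons to reach that p together, so the lack of calls was nearly set by the design. In granulocyte progenitors the share of cells with Spi1 was 22.3% ± 1.91 with vehicle and 17.9% ± 1.08 with IL1β in WT, and the share with Irf8 was 17.4% ± 0.876 and 9.69% ± 1.75 in Tet2-KO mice. In Tet2-KO monocytes the share with Spi1 was 43.7% ± 4.25 and 30.2% ± 5.09. Without thinning these shares were 68.4% and 59.9%, 43.9% and 29.3%, and 71.9% and 69.7%, so the gap for Spi1 in Tet2-KO monocytes was much smaller without thinning. The other 3 comparisons were of Tet2-KO with WT mice given vehicle: Irf8 in granulocyte progenitors (17.4% against 12.4% ± 4.64), Spi1 in monocytes (43.7% against 34.7% ± 1.57) and Cebpa in the Mpo+ Cd34+ progenitors (10.3% ± 2.60 against 15.1% ± 1.51). Without thinning they were 43.9% against 28.7%, 71.9% against 60.4% and 31.0% against 33.0%. In erythroid cells, treated the same way, 3.93% and 3.25% had Spi1 in WT, 4.04% and 1.89% in Tet2-KO mice, and 5.47% and 1.13% of Tet2-KO cells had Irf8. Before thinning, erythroid cells held more UMIs than the tested gates, and transcripts of their own were not told apart. These shares can therefore understate or overstate RNA from other cells in the tested gates.

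Between Tet2-KO and WT mice no member passed the test in any gate, by edgeR or DESeq2, which does not show that the levels were alike. With vehicle 0 members passed in HSC-like cells (0.0% of all genes called), the progenitors (0.0271%), granulocyte progenitors (0.186%) and monocytes (0.0232%), and with IL1β 0 members passed (0.0139%, 0.095%, 0.242% and 0.0116% of all genes). In HSC-like cells with vehicle no gene was called in the whole transcriptome by edgeR, with 367 at an unadjusted p under 0.05. At an unadjusted p under 0.05 there were 4 members in granulocyte progenitors with vehicle: Irf8 (log2 0.45 ± 0.18, adjusted p = 0.634), Cebpb (0.28 ± 0.11, adjusted p = 0.646), Zeb2 (0.23 ± 0.09, adjusted p = 0.616) and Cebpe (-0.40 ± 0.16, adjusted p = 0.658). In this gate, the summed level of 10 monocyte markers ranged from 1450.9 to 1986.3 CPM in WT and 2278.8 to 2872.2 in Tet2-KO mice with vehicle, with none at 0, and its part in the result was not tested.

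With IL1β, 1 member per gate had an unadjusted p under 0.05 except in monocytes, which had 0: Zeb2 in HSC-like cells (log2 -0.33 ± 0.15 in Tet2-KO against WT, adjusted p = 0.851), Cebpe in the progenitors (-1.01 ± 0.48, adjusted p = 0.573) and Spi1 in granulocyte progenitors (0.23 ± 0.08, adjusted p = 0.37). Spi1 was 139, 129.5, 154 and 153 normalised CPM in Tet2-KO and 129, 127, 122 and 113 in WT granulocyte progenitors with IL1β, which do not overlap, although the difference did not survive adjustment over all genes.

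The interaction of genotype and IL1β, which tests whether the response differed between genotypes, was called for 0 members and for 0 genes in every gate by edgeR (0.0% of all genes in each). At an unadjusted p under 0.05, 244 genes of HSC-like cells, 305 of the progenitors, 526 of granulocyte progenitors and 219 of monocytes were found, and DESeq2 called 1 gene in granulocyte progenitors. Among members only Zeb2 in HSC-like cells was under 0.05 before adjustment, with a response in Tet2-KO mice lower by 0.57 ± 0.23 on the log2 scale. A smaller Zeb2 response in Tet2-KO mice, and the larger Irf8 and Id2 changes in Tet2-KO granulocyte progenitors, were therefore not distinguished from the response of WT mice.

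**Figure D4:**
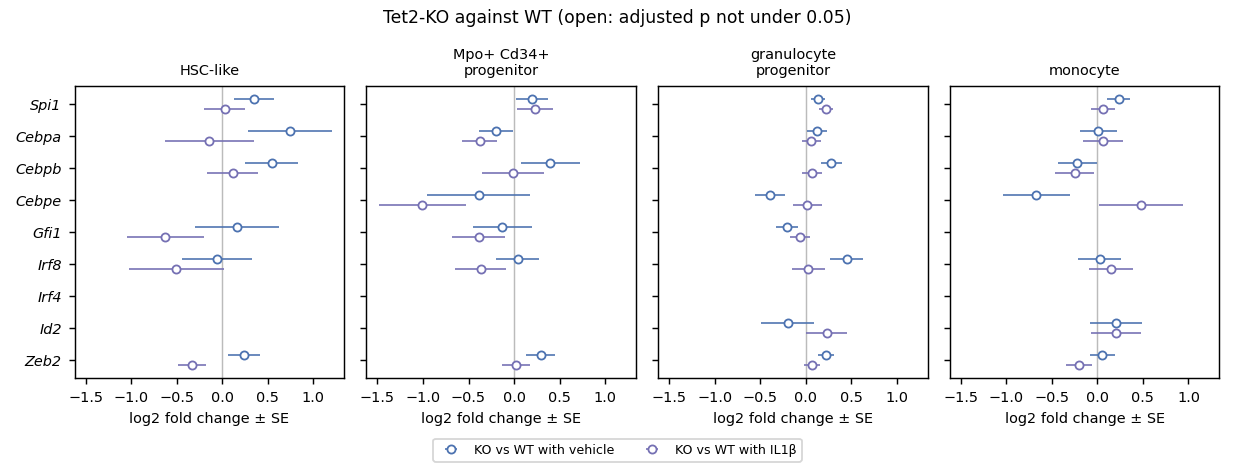
Log2 fold change of each tested member in Tet2-KO against WT mice (horizontal axes, error bars SE), with vehicle and with IL1β, in the 4 gates. All points are open because none passed an adjusted p under 0.05. In granulocyte progenitors with vehicle the points run from -0.40 for Cebpe to 0.45 for Irf8.

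The partners and antagonists of these factors (24 genes such as Runx1, Gata2, Myb, Fli1 and Klf4) were counted with the same tests of IL1β. In HSC-like cells 4 of 17 tested rose in WT (Gata2 by 0.72 ± 0.17, Myb by 0.61 ± 0.16, Runx1 by 0.57 ± 0.17 and Nr4a1 by 3.41 ± 0.73 on the log2 scale) and 2 in Tet2-KO mice (Gata2 by 0.72 ± 0.15 and Fli1 by 0.53 ± 0.18), and none fell. Their median log2 fold change was 0.41 in WT and 0.26 in Tet2-KO mice, with 0.01 over all genes, of which 5.26% and 10.1% were called. In the progenitors 2 of 15 rose in WT (Fli1 by 0.61 ± 0.19, Myb by 0.48 ± 0.12) and 4 in Tet2-KO mice (Gata2 by 1.08 ± 0.19, Fli1, Lmo2 and Myb), with medians of 0.25 and 0.40, where 9.97% and 20.1% of all genes were called. GATA2 and LMO2 are factors of stem and early progenitor cells, as are MYB and FLI1. Gata2 was also among the 10 leading genes of basophils. With vehicle and IL1β, basophils made up 6.46% ± 1.93 and 12.1% ± 0.57 of assigned cells in WT. In Tet2-KO mice they made up 5.07% ± 1.65 and 11.5% ± 5.70. The part of basophils and their RNA in the Gata2 rises was not tested.

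In granulocyte progenitors 3 of 19 partners rose in WT (Myb by 0.41 ± 0.09, Ikzf1 by 0.35 ± 0.09 and Fli1 by 0.24 ± 0.09), and in Tet2-KO mice 6 rose, among them Bcl6 by 1.07 ± 0.22 and Myb by 0.57 ± 0.09. A single partner fell, Klf4, which drives monocyte maturation and dropped by 1.46 ± 0.26 in Tet2-KO mice. Medians were 0.16 and 0.05. With 31.0% of all genes called in WT and 40.9% in Tet2-KO mice in this gate, the partners' counts were no higher than the general share. In monocytes 1 of 20 rose in WT (Myb by 0.64 ± 0.19; median 0.14) and 0 in Tet2-KO mice (median -0.02; 4 had an unadjusted p under 0.05 in edgeR), beside 4.14% and 3.3% of all genes called.

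Family members and regulators (16 genes) were counted in the same way. Tcf4, an E protein of the kind that ID proteins bind, rose in Tet2-KO HSC-like cells (0.69 ± 0.16), in the progenitors of both genotypes (0.54 ± 0.16 and 0.45 ± 0.15) and in granulocyte progenitors (0.41 ± 0.12 and 0.34 ± 0.11). Irf1, which interferon and IL1 signals induce, rose in Tet2-KO HSC-like cells (1.02 ± 0.25) and in granulocyte progenitors (0.47 ± 0.14 and 0.64 ± 0.12). With Trib1 in WT HSC-like cells (2.00 ± 0.60) these were 1 of 11 in WT and 2 of 11 in Tet2-KO HSC-like cells (5.26% and 10.1% of all genes) and 1 of 11 in each genotype in the progenitors (9.97% and 20.1% of all genes). In granulocyte progenitors 2 of 13 rose in each genotype, and 1 fell, Irf3 in WT (-0.28 ± 0.09) and Id1 in Tet2-KO mice (-0.36 ± 0.12). In monocytes 0 of 15 passed in edgeR, with 2 in WT and 0 in Tet2-KO mice at an unadjusted p under 0.05, beside 4.14% and 3.3% of all genes called. Medians lay between 0.05 and 0.44 in the 4 gates. The counts in granulocyte progenitors, where 31.0% and 40.9% of all genes were called, lay below that share.

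Known targets of PU.1, C/EBP factors or IRF8 (22 genes) went both ways. In granulocyte progenitors 5 of 20 rose and 5 fell in WT, and 7 rose and 6 fell in Tet2-KO mice (medians 0.13 and 0.18), beside 31.0% and 40.9% of all genes called. Lcn2, a neutrophil granule protein that binds iron carriers, rose by 1.75 ± 0.35 and 1.54 ± 0.31 on the log2 scale, Cybb, a subunit of the NADPH oxidase, by 1.23 ± 0.28 and 0.70 ± 0.24, and Itgam (CD11b) by 0.77 ± 0.26 and 0.82 ± 0.23. Tyrobp, an adaptor of activating receptors, fell by 0.93 ± 0.11 and 0.83 ± 0.11, Fcer1g by 0.85 ± 0.12 and 0.64 ± 0.12, Lyz2 (lysozyme) by 0.57 ± 0.20 and 1.13 ± 0.19, and Csf1r, the receptor of the monocyte growth factor, by 0.72 ± 0.13 in Tet2-KO mice.

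In the Mpo+ Cd34+ progenitors 5 of 17 targets rose and 4 fell in WT, and 4 rose and 3 fell in Tet2-KO mice (medians 0.41 and 0.33), beside 9.97% and 20.1% of all genes. Lcn2 rose by 2.00 ± 0.45 and 2.14 ± 0.52 and the inhibitory receptor Fcgr2b by 1.45 ± 0.32 and 1.20 ± 0.33, while Tyrobp fell by 1.01 ± 0.23 and 0.93 ± 0.21 and Csf1r by 1.36 ± 0.42 in WT. In HSC-like cells 1 of 12 rose in WT (Itgam by 1.85 ± 0.54) and 1 fell in Tet2-KO mice (Tyrobp by 0.99 ± 0.26), beside 5.26% and 10.1% of all genes. In monocytes 1 of 20 rose and 3 fell in WT, and 1 rose and 2 fell in Tet2-KO mice, with Cst3 and Tyrobp lower in both, beside 4.14% and 3.3% of all genes.

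Of these 3 lists, 2 genes differed between genotypes, both in granulocyte progenitors. Id1, a relative of Id2, was higher in Tet2-KO mice with vehicle by 1.21 ± 0.15 on the log2 scale (adjusted p = 0.000672), and Fcer1g was higher in Tet2-KO mice with IL1β by 0.61 ± 0.12 (adjusted p = 0.0302). As with the members, no gene of the lists had an interaction of genotype and IL1β that passed.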

How the data were processed

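The authors aligned and counted the libraries with Cell Ranger 3.1.0 on GRCm38 (mm10), per the labels and file headers, and deposited raw UMI counts per gene and barcode, with hashtag counts, without normalization. Chromium 3′ v3.1 chemistry was used. Here barcodes with fewer than 750 genes or over 10% mitochondrial UMIs were removed, as in the study, which left 94917 of 121405 barcodes. HTODemux (Seurat 5.3.0) gave 57896 cells to 1 mouse, left out 3938 cells (4.15%) with both hashtags as doublets and left 33083 cells (34.9%, 14.3% to 49.8% per library) uncalled and unused. Doublets within a mouse were not removed.

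HSC-like cells had at least 3 of 12 markers including Hlf, Mecom or Procr, with Mpo and Elane under 5 UMIs, Mpo+ Cd34+ progenitors at least 5 UMIs of Mpo, granulocyte progenitors at least 4 of 7 markers, and monocytes at least 4 of 10 with 2 UMIs or more. Mpo+ Cd34+ progenitors and monocytes also had under 2 UMIs of Ms4a3 and under 5 of Elane, and monocytes under 5 of Mpo. Granulocyte progenitors had at least 5 UMIs of Elane and 2 of Ms4a3. In the gates 9092 assigned cells fell in no class, and 3 listed markers were not analysed here. UMIs were summed per mouse and gate (at least 10 cells) and compared by quasi-likelihood F tests in edgeR 4.0.16 under R 4.3.3 (TMM factors, filterByExpr, all 4 groups in 1 fit, Benjamini-Hochberg over all genes tested, threshold 0.05). DESeq2 1.42.0 was an alternative. Shares of cells were compared with two-sided exact permutation tests (scipy 1.17.1, Python 3.11.15). On simulated counts, the IL1β comparison in WT mice called 45.5% of genes changed by a log2 fold change of 1 in HSC-like cells, 59.8% in the progenitors, 89% in granulocyte progenitors and 76.3% in monocytes (6852, 7156, 10673 and 8432 genes). Where a gene has few UMIs, depth limits what can be seen. The named genes are all members, the tested genes of 3 lists and, per member, the 3 genes with the most similar profile. The members and lists were chosen with earlier results of these data known. Alternatives were other scaling, no filter on low counts, DESeq2, a block on the pool number, another hashtag rule, pools as replicates, stricter gates, at least 30 cells and leaving out each mouse. The sex of the mouse as a term, leaving out the mice of mixed sex and scaling by library size alone were added after seeing the data. P-values measure the spread between mice that share pools.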

Additional observations from a re-analysis of the deposited data

Results flagged for a closer look

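In 3 of 112 groups of 4 mice, 1 mouse lay far from the other 3, where chance marks about 1 group in 20. In the Mpo+ Cd34+ progenitors of WT mice with IL1β, Cebpb measured 182 normalised CPM in mouse 2 and 40.5 to 48.0 in the others. In the same group and gate, Irf8 measured 378 in mouse 4, which had 30 of these cells, and 106 to 134 in the others. In HSC-like cells of WT mice with vehicle, Spi1 was at 0.0 in mouse 2, with 13 cells and 36683 UMIs, and at 79.9 to 93.4 in the others.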

How the results depend on the processing

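The number of member tests called with IL1β over the 4 gates was 7 in WT and 11 in Tet2-KO mice. In WT it was 11 with no filter on low counts, and in Tet2-KO mice 6 with pools as replicates. Leaving out 1 mouse gave 5 to 9 calls in WT and 7 to 11 in Tet2-KO mice, with 7 in the latter without Tet2-KO IL1β mouse 1. In no alternative run was a member called between genotypes or in the interaction, and no call turned its direction. Between gates, leaving out a mouse gave 6 to 7 calls in granulocyte progenitors and 6 to 7 in monocytes against the progenitors, 7 to 8 in monocytes against granulocyte progenitors and 4 to 5 in the progenitors against HSC-like cells. The calls of Zeb2 in HSC-like cells of both genotypes and in WT progenitors, of Gfi1 in granulocyte progenitors of both genotypes, of Irf8 in Tet2-KO progenitors and granulocyte progenitors and of Spi1 in WT granulocyte progenitors were made in every alternative run. Cebpe in WT granulocyte progenitors was called by DESeq2 (adjusted p = 0.0458). With the hashtag ratio rule, Gfi1 was called in the progenitors of WT (adjusted p = 0.0285) and Tet2-KO mice (adjusted p = 0.0256), and Spi1 in WT monocytes (adjusted p = 0.032). With no filter on low counts, Cebpe was called in WT progenitors (adjusted p = 0.0336) and WT granulocyte progenitors (adjusted p = 0.0357), and Id2 in monocytes of both genotypes and in WT granulocyte progenitors (adjusted p = 0.00383 to 0.0386). With the pool number as a replicate block the counts were again 7 and 11, and deviations of samples with the same number from their group means had correlations of -0.14 to 0.17 over 24 pairs, of which 5 were over 0.1, so the numbers do not pair the samples. The cause of the differences between alternatives was not tested, apart from fewer samples or genes where an alternative leaves them out. Few UMIs of Gfi1, Id2, Cebpe and Irf8 limit what HSC-like cells can show.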

Other observations

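Megakaryocytes, which form platelets, had the highest level of Zeb2 of all classes in WT mice with vehicle, at 650 CPM. With IL1β they had 741 CPM in WT, while Tet2-KO megakaryocytes had 682 with vehicle and 843 with IL1β. In immature neutrophils Cebpe was 423 ± 46 with vehicle and 318 ± 81 with IL1β in WT, and 354 ± 120 and 358 ± 49 in Tet2-KO mice, and Spi1 was 235 ± 30 and 194 ± 22, and 246 ± 12 and 228 ± 12. In basophils, the class highest in Cebpa, its level was 277 and 226 CPM in WT and 277 and 267 in Tet2-KO mice. These are mean levels over mice with no test.

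The gates held different shares of the assigned cells by group. Granulocyte progenitors made up 18.6% ± 5.6 in WT mice with vehicle, 26.8% ± 4.6 in WT with IL1β, 25.5% ± 12 in Tet2-KO with vehicle and 36.4% ± 12 in Tet2-KO with IL1β. Monocytes made up 8.69% ± 3.49, 5.07% ± 2.25, 7.67% ± 1.62 and 3.06% ± 1.19 in the same order. Lineage depletion and the gates set these shares too, and they were not tested.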
